A study of Rattus norvegicus with 22 samples.

Results

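The Cyp4 genes described here are 9 genes of cytochrome P450 family 4 in rat liver: Cyp4a1, Cyp4a2, Cyp4a3, Cyp4a8, Cyp4b1, Cyp4f1, Cyp4f4, Cyp4f5 and Cyp4f6. They were chosen by name, as every non-control probe on the array whose gene name is 1 of these 9, and 10 of the 30367 probes met this rule. All 10 probes are among the 19434 probes that were bright enough to be tested. Cyp4a8 has 2 probes, and its brighter probe is the one meant below unless the other is named.

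The enzymes of this family add a hydroxyl group to the far end, the omega carbon, of a fatty acid. In the liver this is the first step of omega-oxidation, a side route of fatty acid breakdown that ends in dicarboxylic acids, which peroxisomes then shorten. The Cyp4a enzymes act on medium and long chain fatty acids and on arachidonic acid, and their genes are among the best known targets of PPARalpha, a nuclear receptor that fatty acids activate. The Cyp4f enzymes also take leukotrienes and other eicosanoids and very long chain fatty acids, and Cyp4b1 is known mainly from the lung, where it acts on short chain fatty acids and foreign compounds.

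RNA from the liver of each rat was labelled with Cy5 and hybridised on its own two-colour Agilent array together with a Cy3-labelled common reference, liver RNA from healthy 10-week rats kept outside the experiment. The study's methods describe the animals as male Sprague-Dawley rats, and every rat received a semi-synthetic diet. Rats of the control groups ate it plain for 3 months (CD 3, n = 5) or 14 months (CD 14, n = 6). Rats of the experimental groups ate the BASE-diet for 3 months (BD 3, n = 5) or 14 months (BD 14, n = 6), in which 6% of salmon fat stood in for lard and which also held 8% of a linden extract, 8% of pumpkin puree and 1% of 2 probiotic strains. The paper's diet table also gives the BASE-diet more rapeseed oil and slightly less wheat starch. The 4 additions and these changes were given together, so that the share of any 1 of them in a difference cannot be told apart. A level is given throughout as the log2 ratio of the rat to the reference, where 0 is the reference level and 1 is a doubling.

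On the array of CD 3 rat 4, 52.4% of the spots were well above background in Cy5, against 66.2% to 93.6% on the others, and CD 3 rat 1 and CD 14 rat 1 had 4.44% and 4.05% of spots flagged as non-uniform, against at most 0.0630% elsewhere. All 10 hepatocyte markers were well above background on every array, and of 4 lung and 5 kidney markers 1 and 3 were bright enough to be tested. The 22 arrays lie on 5 slides. BD 3 and CD 3 share 1 slide (2 rats against 1), and BD 14 and CD 14 share another (6 rats against 2), so most of each diet comparison also runs between slides. CD 14 and CD 3 share a slide with 1 rat each, and BD 14 and BD 3 share none, so the time comparisons run almost wholly between slides.

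All 10 probes were well above background in Cy5 on the 22 arrays, except that of Cyp4b1, which was so on 21, and none was saturated. The gene positions are those of the array annotation on the rat build rn4. The probes of the Cyp4a genes and Cyp4b1 lie on chromosome 5, and those of the Cyp4f genes on chromosome 7. The Cyp4a probes are shown because these genes are close relatives that lie near each other, and each value below rests on which of them its 60-base probe reads. The first 30 bases of each probe are printed in lower case, 5′ to 3′, with its position and strand in rn4.
Cyp4a1, chr5:135915634-135915693, plus strand: agactgttacctggtacgttcatctaaatc
Cyp4a2, chr5:135547423-135547482, minus strand: gaaggaaggtgactcaaaagaagagatttc
Cyp4a3, chr5:135876161-135876220, minus strand: taattctgatacagaacagtagagagaaat
Cyp4a8, brighter probe, chr5:135546881-135546940, minus strand: tggcccggaaaccaggaaagggaataacac
Cyp4a8, other probe, chr5:135547750-135547809, minus strand: caaaaagctccaataatcttgacagcacaa
No pair of the 10 probes shared a run of more than 9 bases, which compares the probes with each other and not with the transcripts of the other genes. In rn4 the Cyp4a2 probe lies between the Cyp4a8 probes, 327 bases from one and 542 from the other, on the same strand. The Cyp4a8 probes are 869 bases apart in both their transcript and the genome, so the Cyp4a2 probe falls inside that stretch. RefSeq lists the transcripts that the array names as 2 separate genes, and which of them the Cyp4a2 probe reads could not be checked. Values of Cyp4a2 and Cyp4a8 are uncertain to that extent. A probe can also bind the RNA of a close relative, which was not tested for any of these genes.

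No Cyp4 probe passed the threshold of an adjusted p of 0.05 in any comparison. In limma, 0 of 10 probes were called between the diets at 3 months, where 0% of the 19434 probes were called, and 0 of 10 at 14 months, where 0% were called. At an unadjusted p under 0.05, 1 of the 10 probes passed at 3 months, against 7.11% of all probes, and 1 passed at 14 months, against 4.6%. That probe was Cyp4a1 both times. The test named in the study's methods called 0 of 10 after Benjamini-Hochberg adjustment. Without it, that test passed 0 of 10 between the diets at either time, where 433 of all 19434 probes passed at 3 months and 195 at 14 months. Over the 10 probes, 5 differences were above 0 at 3 months and 6 at 14 months, with medians of -0.05 and 0.13, beside medians of 0.03 and 0.05 over all probes tested. No member separated the diet groups: for each of the 9 genes the ranges of the rats overlapped at 3 months, where 0.756% of all probes did separate the groups, and at 14 months, where 0.767% did.

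**Figure D1:**
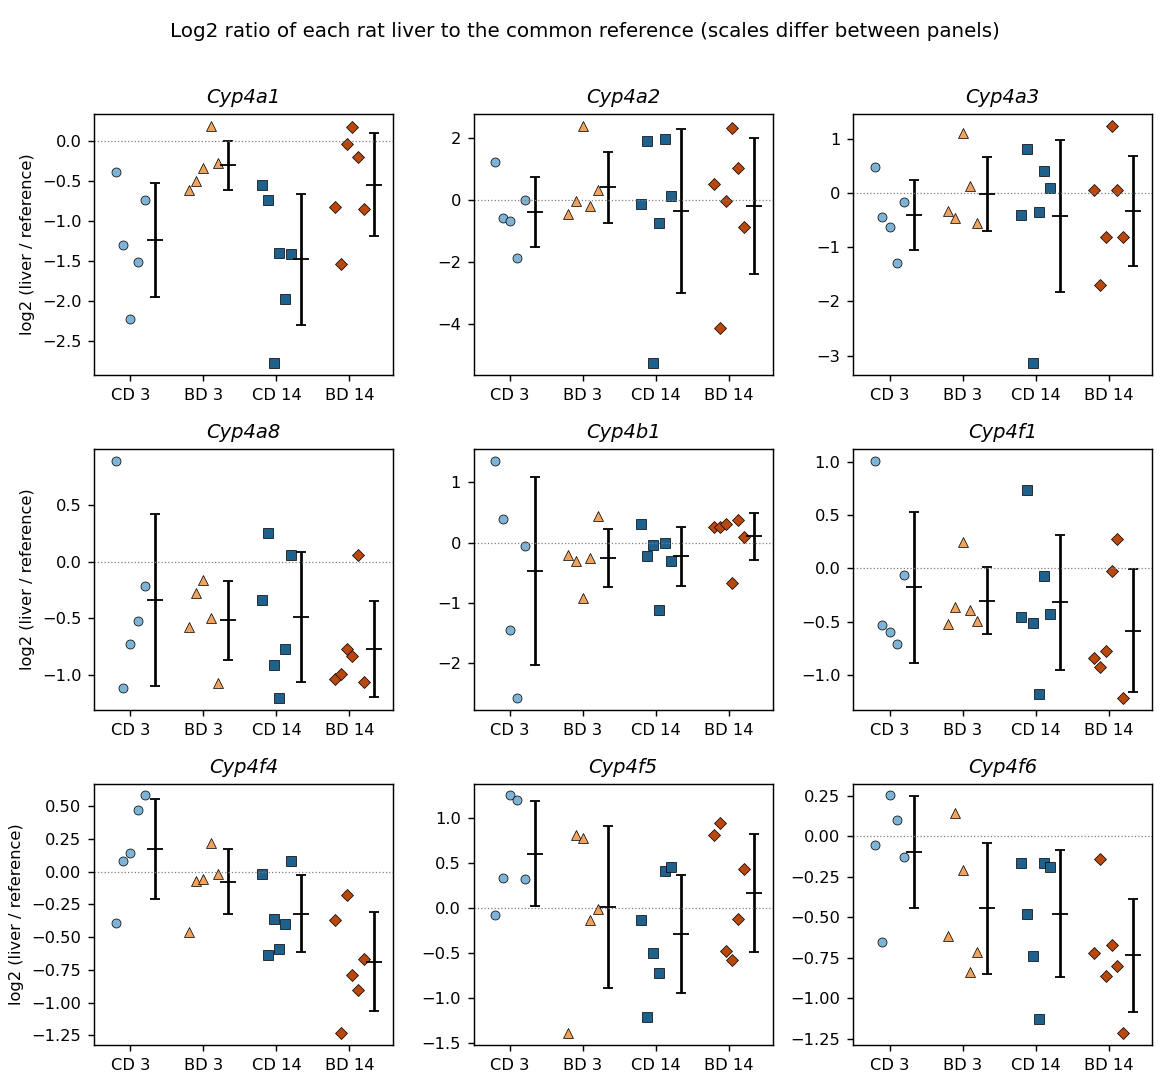
Log2 ratio of each liver to the common reference for the 9 Cyp4 genes, with 1 panel per gene, 1 point per rat and the 4 groups along the x axis. Black bars give the mean and SD of 5 or 6 rats, and the dotted line is the reference level. Cyp4a1 lies higher in the BASE-diet groups with overlapping ranges, and Cyp4a2 and Cyp4a3 spread far more within groups than between them.

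Cyp4a1, the enzyme best known as the lauric acid hydroxylase that fibrate drugs induce in rat liver, had the lowest mean level in CD 14 and the highest in BD 3. Its log2 ratios in CD 3 were -0.38, -1.30, -2.23, -1.51 and -0.73, with a mean of -1.23 ± 0.72 (SD, n = 5). In BD 3 they were -0.60, -0.50, -0.33, 0.20 and -0.27, with a mean of -0.30 ± 0.31 (SD, n = 5). All 5 BD 3 rats lay above the median of CD 3, and 3 lay above every CD 3 rat.

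At 14 months the control rats ran from -2.78 through a median of -1.41 to -0.55, with a mean of -1.48 ± 0.82 (SD, n = 6). The BD 14 rats ran from -1.54 through -0.51 to 0.18, with a mean of -0.54 ± 0.64 (SD, n = 6). Of the 6 BD 14 rats 5 lay above the median of CD 14, and 3 lay above every CD 14 rat. All 11 control rats were below the reference level.

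The diet difference of Cyp4a1 was 0.93 on the log2 scale at 3 months (SE 0.40, limma unadjusted p = 0.0298, adjusted p = 0.644) and 0.94 at 14 months (SE 0.36, limma unadjusted p = 0.0179, adjusted p = 0.952), that is 1.91-fold each time. The 95% intervals of these differences were 0.10 to 1.76 and 0.18 to 1.69. With the slide as a block the difference at 3 months was 0.085, with an SE of 0.61, and within the slide that holds both groups it was -0.17 for 2 BD 3 rats against 1 CD 3 rat. That CD 3 rat is rat 1, whose array had 4.44% of spots flagged as non-uniform. Without its array the difference with no block was 1.14. At 14 months the block gave 1.15, with an SE of 0.51, and the shared slide alone 1.15 for 6 rats against 2. In the Cy5 channel alone, after quantile normalisation of the processed signals and without dividing by the reference, the differences were 0.57 and 0.64. The order of the group means was CD 14, CD 3, BD 14 and BD 3, and the steps between neighbours of one diet were 0.25 and 0.24, each within the SD of the groups.

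Genes that PPARalpha is known to control were set beside Cyp4a1 as a list of 45 genes of peroxisomal and mitochondrial fatty acid breakdown, thioesterases and lipid handling, of which 43 were tested. None of the 43 was called in either diet comparison. At an unadjusted p under 0.05, 7 of them were higher with the BASE-diet at 3 months, as were 4.99% of all probes, and 17 at 14 months, as were 3.79%, and 0 were lower. At 3 months 33 of the 43 differences were above 0, with a median of 0.33, and at 14 months 41 were, with a median of 0.60, against 0.03 and 0.05 over all probes. With the slide as a block the medians were 0.29 and 0.60.

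By the larger of its differences at the 2 times, Acot1 led the list, a thioesterase that frees fatty acids from coenzyme A, with 2.54 (SE 0.63, adjusted p = 0.40) at 3 months and 3.31 (SE 0.58, adjusted p = 0.153) at 14 months. It was followed by Vnn1, Eci1 and Cidec. Cidec, a protein of lipid droplets, gave 1.05 and 1.26 (SE 0.31 and 0.28, adjusted p = 0.40 and 0.397). Eci1, which handles double bonds in mitochondrial beta-oxidation, gave 0.54 and 1.32 (adjusted p = 0.851 and 0.767), and Vnn1, a pantetheinase, gave 0.40 and 1.35 (adjusted p = 0.939 and 0.952), of which the first was 0.052 with the slide block. The difference of Cyp4a1 was above the median of the list and below that of its leading gene at both times, but with the slide block it was under the list's median at 3 months (0.085 against 0.29).

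The log2 ratios of Cyp4a2 and Cyp4a3, fatty acid and arachidonic acid hydroxylases whose sequences are close, followed each other from array to array. Those of Cyp4a2 varied most of the 9 genes. Cyp4a2 ranged over 7.65 log2 units, from -5.25 in CD 14 rat 3 to 2.40 in BD 3 rat 3, and its residual SD of 1.96 was above that of 99.8% of the probes tested. The median SD between spots of this probe on 1 array was 0.0163, which is the noise between spots and leaves out the differences between arrays that the reference channel shows below.

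In CD 3 the log2 ratios of Cyp4a2 were 1.22, -0.56, -0.68, -1.86 and 0.00, and in BD 3 they were -0.44, -0.03, 2.40, -0.18 and 0.34. The CD 14 rats ran from -5.25 through a median of 0.00 to 1.97, and the BD 14 rats from -4.11 through 0.25 to 2.33. In CD 14 only rat 3 lay below -0.73, and in BD 14 only rat 2 lay below -0.85, so the low values belong to 1 rat of each group.

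The diet difference of Cyp4a2 was 0.80 (SE 1.14, 95% interval -1.58 to 3.17, limma adjusted p = 0.931) at 3 months and 0.17 (SE 1.04, adjusted p = 0.992) at 14 months. With the slide as a block they turned to -0.16 and -0.80. Without CD 14 rat 3 the difference at 14 months was -0.81, and without BD 14 rat 2 it was 0.95.

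Cyp4a3 followed the same rats. Its log2 ratios were 0.49, -0.44, -0.62, -1.28 and -0.17 in CD 3 and -0.33, -0.46, 1.11, 0.14 and -0.55 in BD 3. They ran from -3.14 through -0.12 to 0.82 in CD 14 and from -1.70 through -0.37 to 1.25 in BD 14, and the lowest rats were again CD 14 rat 3 and BD 14 rat 2. The diet differences were 0.39 (SE 0.60, adjusted p = 0.935) and 0.10 (SE 0.55, adjusted p = 0.991), and the slide block gave -0.059 and -0.36.

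Over the 22 arrays Cyp4a2 and Cyp4a3 had a Pearson r of 0.953 and a Spearman rho of 0.851, as a description. The r was 0.916 without CD 14 rat 3 and BD 14 rat 2, 0.951 with the group means removed, and 0.979 and 0.927 within the 2 slides of 6 and 8 arrays. The points share the reference channel, and r was 0.942 in Cy5 alone and 0.951 in Cy3 alone. Whether either probe also binds the RNA of the other gene was not tested. Cyp4a1 followed the pair less closely, with r of 0.602 to Cyp4a2 and 0.603 to Cyp4a3, which became 0.401 and 0.371 without CD 14 rat 3 and CD 3 rat 3.

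**Figure D2:**
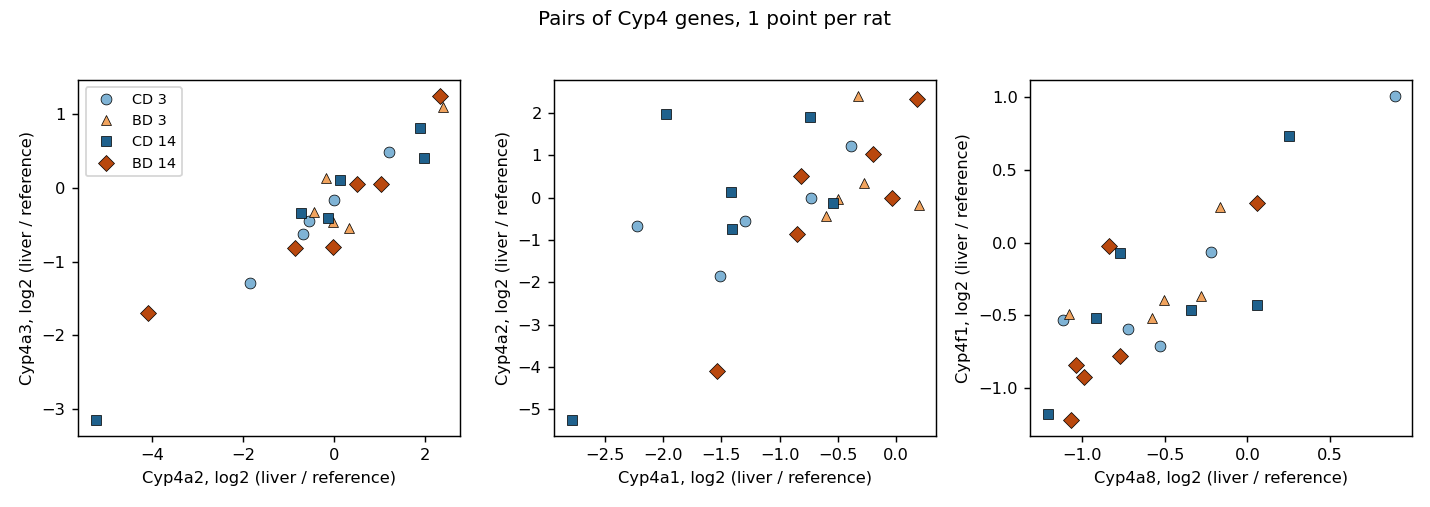
Log2 ratios of pairs of Cyp4 genes, 1 point per rat, with colour and shape for the group: Cyp4a3 against Cyp4a2, Cyp4a2 against Cyp4a1, and Cyp4f1 against Cyp4a8. The first pair lies along a line (r = 0.953) that runs through all 4 groups, with CD 14 rat 3 and BD 14 rat 2 at its low end, and the second is looser (r = 0.602).

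The starts of these genes are printed because the ratios of the pair ran together from array to array. Sequences of 7 of the 9 genes were found in RefSeq on the build GRCr8, and the 250 bases before the start of Cyp4a2 and of Cyp4a3 follow, 5′ to 3′. Capitals mark AGGTCA, the half-site that PPARalpha and other nuclear receptors are known to bind in pairs.
Cyp4a2, chr5:134170909-134171158, minus strand: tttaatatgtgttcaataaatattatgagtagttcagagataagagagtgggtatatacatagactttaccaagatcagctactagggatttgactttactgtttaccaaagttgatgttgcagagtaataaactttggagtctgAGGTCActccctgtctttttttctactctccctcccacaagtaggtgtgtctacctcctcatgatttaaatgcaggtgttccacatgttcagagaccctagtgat
Cyp4a3, chr5:134352237-134352486, minus strand: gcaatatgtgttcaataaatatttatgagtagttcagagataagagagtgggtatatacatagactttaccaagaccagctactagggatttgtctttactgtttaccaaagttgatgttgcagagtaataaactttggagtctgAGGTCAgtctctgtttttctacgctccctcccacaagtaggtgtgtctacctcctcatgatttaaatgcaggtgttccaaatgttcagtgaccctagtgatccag
Aligned end to end, the windows were identical at 236 of 255 columns, or 92.5%, while the other 20 pairs among the 7 genes were identical at 39.7% to 56.2%. The AGGTCA begins 105 bases before the start in both. Searched on both strands over windows of 300 bases, AGGTCA was found in 2 of the 7 Cyp4 windows, those of Cyp4a2 and Cyp4a3, and in 16.2% of 33469 windows of all genes. The full direct repeat AGGTCANAGGTCA, which contains the first motif, was in 0 of 7 and in 0.0538% of all. The genes without a window, and so not searched, were Cyp4a1 and Cyp4f4. A match says only that these letters stand in the window.

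The reference signal of Cyp4a2 was itself uneven between arrays. After quantile normalisation of each channel, its Cy3 log2 signal ran from 14.5 to 17.5, with an SD of 0.965 over the 22 arrays, which is above that of 98% of 12402 probes that were well above background in both channels everywhere, where the median SD was 0.371. Its Cy5 signal had an SD of 1.14, with a median of 0.526 over the same probes. The Cy3 signal was at its lowest, between 14.49 and 15.01, on 6 arrays, those of CD 3 rat 1, BD 3 rat 3, CD 14 rats 2 and 5 and BD 14 rats 4 and 5, and these are the 6 highest log2 ratios of the gene. In CD 14 rat 3 and BD 14 rat 2 the Cy5 signals, 12.3 and 13.5, were the lowest of all and the Cy3 signals, 17.2 and 17.5, among the highest. The labels name a single common reference, and the part of its variation in the ratios was not tested.

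**Figure D3:**
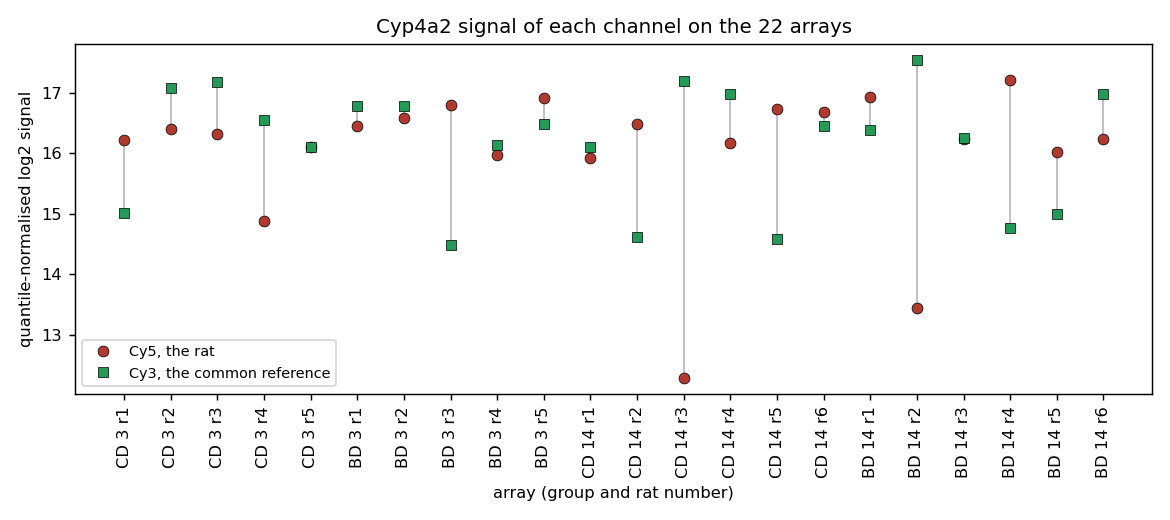
Quantile-normalised log2 signal of Cyp4a2 in the rat channel (Cy5, circles) and the common reference channel (Cy3, squares) on each of the 22 arrays, joined by a line whose length is the distance between the channels. Cy5 is low in CD 14 r3 (12.3) and BD 14 r2 (13.5), and Cy3 is low on 6 arrays, from 14.49 to 15.01.

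The genes whose ratios ran most like Cyp4a2, looked up after its values were seen among genes measured on all 22 arrays, were Cyp3a73 (r = 0.858), Cyp2c11 (r = 0.818), Cyp3a18 (r = 0.818), Cyp3a2 (r = 0.815) and Enpp2 (r = 0.801). Without the 2 arrays farthest from each gene's median these r values were between 0.587 for Cyp3a2 and 0.753 for Cyp3a18. Cyp2c11 and Cyp3a2, like Cyp4a2, are known in the rat as enzymes with higher levels in males, and Cyp2c12 as one with higher levels in females. In CD 14 rat 3 the log2 ratios of Cyp2c11 and Cyp2c12 were -1.19 and 1.59, and in BD 14 rat 2 they were -2.45 and 3.15. Those Cyp2c11 ratios were the lowest of the 22 rats, in a gene picked here for its likeness to Cyp4a2, and the Cyp2c12 ratios were the highest of their groups. In Cy5 alone the Cyp2c11 signal of BD 3 rat 4, 14.45, was below that of CD 14 rat 3, 14.64. BD 3 rat 4 also had a high Cyp2c12, at 2.54, with Cyp2c11 at -0.61 and Cyp4a2 at -0.18. The methods give the animals as male, and the labels give no sex.

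Cyp4a8 is a fatty acid hydroxylase of the same subfamily, known in the rat as androgen-responsive. Its log2 ratios were 0.89, -1.11, -0.72, -0.53 and -0.22 in CD 3 and -0.58, -0.28, -0.16, -0.50 and -1.07 in BD 3. They ran from -1.21 through -0.55 to 0.25 in CD 14 and from -1.06 through -0.91 to 0.06 in BD 14. The diet differences were -0.18 (SE 0.34, adjusted p = 0.948) and -0.29 (SE 0.31, adjusted p = 0.952), and the second turned to 0.45 in Cy5 alone. The slide block gave -0.83 and 0.22. The other probe of the gene, dimmer in Cy5 on every array, gave 0.02 and 0.20 (SE 0.62 and 0.57, adjusted p = 0.997 and 0.98). The correlation between the probes was r = 0.312, or 0.569 without CD 3 rat 1 and CD 14 rat 2. It was -0.201 in Cy5 alone and 0.335 in Cy3 alone, so the probes did not run together in the rat channel. Which of them better reads the gene was not tested, and the values of Cyp4a8 are those of the brighter probe only.

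Cyp4b1 gave -0.47 ± 1.55 in CD 3 and -0.25 ± 0.48 in BD 3 (SD, n = 5 each), and -0.23 ± 0.48 in CD 14 and 0.10 ± 0.39 in BD 14 (SD, n = 6 each). CD 3 held its lowest rat, at -2.57, and its highest, at 1.36, and these were rat 4, whose array had the fewest spots above background, and rat 1, whose array had the most non-uniform spots. Rat 4 was the 1 rat in which Cyp4b1 was not well above background, and without it the difference at 3 months was -0.31. The diet differences were 0.21 (SE 0.50, adjusted p = 0.958) and 0.33 (SE 0.45, adjusted p = 0.956). The slide block gave -1.22 and 0.66, and in Cy5 alone the second was -0.48.

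**Figure D4:**
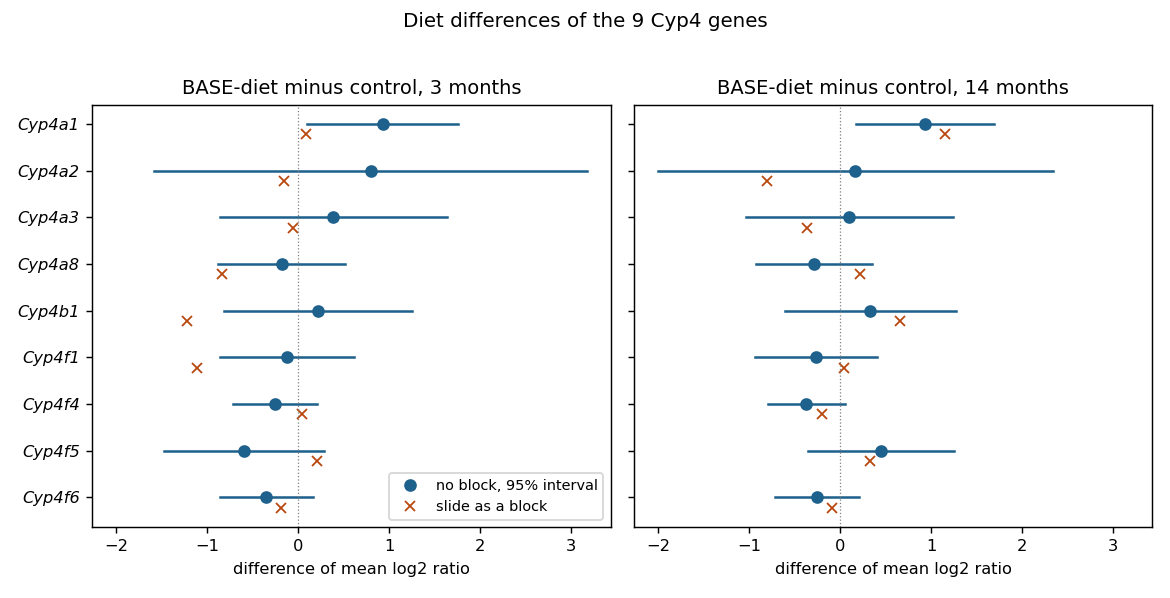
Difference of mean log2 ratio between BASE-diet and control rats for the 9 Cyp4 genes at 3 months (left) and 14 months (right). Circles and lines give the limma difference with its 95% interval, and crosses the difference with the slide as a block. The interval lies above 0 only for Cyp4a1, at both times, and its block value is 0.085 at 3 months and 1.15 at 14 months.

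The 4 Cyp4f genes, whose products act on leukotriene B4 and related eicosanoids as well as fatty acids, had no called difference between the diets. Cyp4f1 was measured at -0.18 ± 0.71 in CD 3 and -0.30 ± 0.31 in BD 3 (SD, n = 5 each), and at -0.32 ± 0.63 in CD 14 and -0.58 ± 0.58 in BD 14 (SD, n = 6 each). Its diet differences were -0.13 (SE 0.35, adjusted p = 0.967) and -0.27 (SE 0.32, adjusted p = 0.955), with 95% intervals of -0.86 to 0.61 and -0.94 to 0.41. The slide block gave -1.11 at 3 months and 0.039 at 14 months.

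At 3 months Cyp4f6 was measured at -0.10 ± 0.34 in control rats and -0.44 ± 0.41 in BASE-diet rats (SD, n = 5 each). At 14 months it was measured at -0.48 ± 0.39 in control rats and -0.73 ± 0.35 in BASE-diet rats (SD, n = 6 each). Its diet differences were -0.35 (SE 0.24, adjusted p = 0.831) and -0.26 (SE 0.22, adjusted p = 0.952), and the slide block gave -0.18 and -0.089. Cyp4f5 was measured at 0.61 ± 0.59 and 0.013 ± 0.90 in control and BASE-diet rats at 3 months (SD, n = 5 each), and at -0.28 ± 0.65 and 0.17 ± 0.65 at 14 months (SD, n = 6 each). Its diet differences were -0.59 (SE 0.42, adjusted p = 0.833) and 0.45 (SE 0.39, adjusted p = 0.952), of opposite sign, and the diet by time interaction was 1.05 (SE 0.57, limma unadjusted p = 0.0813, adjusted p = 0.999). With the slide as a block the differences of Cyp4f5 were 0.21 and 0.33, of one sign, and the interaction was 0.12 (SE 0.86).

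Cyp4f4, a leukotriene and fatty acid hydroxylase, was the member with the smallest residual SD, 0.331, and with the lowest p in the F test below. Its log2 ratios were -0.39, 0.08, 0.15, 0.47 and 0.58 in CD 3, with a mean of 0.18 ± 0.38 (SD, n = 5), and -0.46, -0.07, -0.05, 0.22 and -0.02 in BD 3, with a mean of -0.08 ± 0.25 (SD, n = 5). The CD 14 rats ran from -0.63 through -0.38 to 0.08, with a mean of -0.32 ± 0.29 (SD, n = 6), and the BD 14 rats from -1.23 through -0.73 to -0.18, with a mean of -0.69 ± 0.38 (SD, n = 6). All 6 BD 14 rats lay below the reference level and below the mean of BD 3.

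The diet differences of Cyp4f4 were -0.25 (SE 0.22, adjusted p = 0.872) and -0.37 (SE 0.20, adjusted p = 0.952), and the slide block gave 0.038 and -0.19. Between 3 and 14 months its level differed by -0.50 in control rats (SE 0.21, limma unadjusted p = 0.0293, adjusted p = 0.428) and by -0.61 in BASE-diet rats (SE 0.21, unadjusted p = 0.00882, adjusted p = 0.486), and the F test over the 4 groups gave an unadjusted p of 0.00373 (adjusted p = 0.247). The slide block gave -0.39 (SE 0.32) and -0.62 (SE 0.34) for the time differences, and the Cy5 channel alone -0.40 and -0.57. No slide holds both BD 14 and BD 3, so the block reaches that difference only through the control rats and cannot separate it from the slides directly. The diet by time interaction of Cyp4f4 was -0.12 (SE 0.30, unadjusted p = 0.703, adjusted p = 0.999).

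Time also stood out at an unadjusted p in Cyp4f5, where CD 14 differed from CD 3 by -0.89 (SE 0.40, limma unadjusted p = 0.0395, adjusted p = 0.467) and by -0.43 (SE 0.68) with the slide block. These 2 probes are those of the 10 that passed at an unadjusted p between CD 14 and CD 3, where 10.1% of all probes did (6.85% higher and 3.29% lower in CD 14), and Cyp4f4 was the 1 of 10 that passed between BD 14 and BD 3, where 7.44% did (2.68% lower in BD 14). No Cyp4 gene separated the times, as 0.515% of all probes did in control rats and 2.26% in BASE-diet rats. No member was called (0% of all probes in each time comparison), and the diet by time interaction passed an unadjusted p of 0.05 in 0 of 10 members, against 4.8% of all probes, and 0 of 10 were called, against 0%. In the F test, Cyp4a1 (unadjusted p = 0.0165, adjusted p = 0.362) and Cyp4f4 passed at an unadjusted p, against 10.5% of all probes, and 0 of 10 were called, against 0.0257%. Age and time on the diet run together in these groups and cannot be told apart.

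The genes whose ratios ran most like Cyp4a1 over the 22 arrays, among 11524 genes, were Acot2, a mitochondrial thioesterase (r = 0.843), Acad11, an acyl-CoA dehydrogenase (r = 0.819), RGD1308772 (r = 0.812), Hadh, the short chain hydroxyacyl-CoA dehydrogenase of mitochondria (r = 0.804), and Vnn1 (r = 0.802). Acot2 and Vnn1 are on the PPARalpha list. With the group means removed these r values were 0.791, 0.799, 0.746, 0.697 and 0.784. Without the 2 arrays farthest from each gene's median they were between 0.664 for Vnn1 and 0.804 for Hadh.

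Cyp4f1 ran most like Ppdpf (r = 0.850), Inhba, a subunit of activin (r = 0.787), Naa60, an N-terminal acetyltransferase (r = 0.782), Plekhb1 (r = 0.775) and Hibadh, an enzyme of valine breakdown (r = 0.769). In Cy5 alone these r values were 0.879, 0.332, 0.711, 0.378 and 0.461, and in Cy3 alone 0.603, 0.637, 0.748, 0.759 and 0.876. Cyp4f4, looked up after its values were seen, ran most like the aldo-keto reductases Akr1c1 (r = 0.865) and Akr1c12 (r = 0.852), which became 0.784 and 0.810 without the 2 arrays farthest from each gene's median. Among the members themselves Cyp4f1 ran most like Cyp4a8, with r = 0.829, which became 0.669 without CD 14 rat 2 and CD 3 rat 1. That likeness was not in the rat channel, where r was -0.281, and it was 0.480 in the reference channel. For Cyp4a1 with Acot2, Acad11, RGD1308772, Hadh and Vnn1, in that order, the r was 0.593, 0.845, 0.736, 0.605 and 0.783 in Cy5 alone, and 0.336, 0.675, 0.870, 0.361 and 0.752 in Cy3 alone. All these values are descriptions over arrays that share a reference.

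Omega-hydroxylation needs electrons, which the P450 reductase Por and cytochrome b5 (Cyb5a, with its reductase Cyb5r3) supply. None of the 3 was called, and their diet differences were 0.41, -0.10 and 0.28 at 3 months and 0.87, 0.34 and 0.032 at 14 months, in that order. Por alone passed an unadjusted p of 0.05, at 14 months, and its difference at 3 months turned to -0.18 under the slide block, which also gave 0.043 for Cyb5a at 14 months and 0.025 for Cyb5r3 at 3 months. Of the 7 alcohol and aldehyde dehydrogenases that can carry the product on to the dicarboxylic acid, 0 were called and 0 passed an unadjusted p of 0.05 in either diet comparison, with medians of 0.17 and -0.020, for which the slide block gave -0.30 and -0.31. Adh4 had the largest difference, -0.92 (SE 0.58, adjusted p = 0.807), at 3 months, where the slide block gave -1.60.

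Of 12 tested genes for nuclear receptors and their partners 0 were called, and 1 passed at an unadjusted p at each time, Ppargc1b, a coactivator, at 3 months (0.97, SE 0.46, slide block 0.28) and Nr0b2 at 14 months. Ppara itself, which did not pass, differed by 0.99 at 3 months (SE 0.56, adjusted p = 0.78) and by 0.14 at 14 months (SE 0.51, adjusted p = 0.985), and its value at 3 months was -0.82 with the slide as a block. Nr0b2, the small heterodimer partner, differed by 0.41 and 1.05 (adjusted p = 0.907 and 0.952). Of 7 further names beginning with Cyp4 on the array, which include Cyp46a1 of another family, 5 were tested, 0 were called between the diets, and Cyp4f17 had the difference farthest from 0, -0.30 (SE 0.38, adjusted p = 0.956), at 14 months.

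In bulk liver, fewer cells of a type and less RNA per cell cannot be told apart. The mean log2 ratio over the 10 hepatocyte markers lay between -1.80 and 0.38 among CD 3 rats and -0.39 and 0.06 among BD 3 rats. It lay between -0.54 and 0.27 among CD 14 rats and -0.45 and 0.41 among BD 14 rats. Over the 8 tested macrophage and Kupffer markers it lay between -3.02 and -0.62 among CD 3 rats, -2.20 and -0.38 among BD 3 rats, -1.16 and -0.011 among CD 14 rats and -1.71 and 0.023 among BD 14 rats, and 6 of the 8 passed an unadjusted p of 0.05 as higher in CD 14 than in CD 3, as did 6.85% of all probes. The median of these markers between CD 14 and CD 3 was 1.24, and the slide block gave 0.37. Between the diets, 8 of the 8 were above 0 at 3 months, with a median of 0.68 (0.54 with the slide block), and 7 of the 8 were below 0 at 14 months, with a median of -0.21 (-0.73 with the block). All 4 tested endothelial markers were above 0 at 3 months (median 0.22, block 0.60) and below 0 at 14 months (median -0.36, block -0.22). Of 8 periportal markers 6 were above 0 at 3 months and 4 at 14 months. The differences of all 3 red cell markers were below 0 at both times, with medians of -0.96 and -0.30 (-0.78 and -0.64 with the block), 2 of them at an unadjusted p under 0.05 at 3 months. Over the 7 pericentral markers, which mark the zone where Cyp4a enzymes are known to be induced, the median diet difference was 0.13 at 3 months and -0.21 at 14 months, and with the slide as a block both turned, to -0.058 and 0.20. At 14 months 6 of the 7 were below 0, and the 2 that passed an unadjusted p, Cyp1a2 (-0.996) and Slc1a2 (-0.98), were -1.59 and -1.20 with the block. The part of cell composition in the values of the Cyp4 genes was not tested.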

How the data were processed

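Liver RNA of 22 rats was read on two-colour arrays, 1 per rat. Per the file headers the authors obtained each log10 ratio and processed intensity value with Agilent Feature Extraction 10.10.1.1 (the submitters' processing notes give 10.7.3.1), which subtracted background and applied Lowess within each array. The labels put the rat in Cy5 on every array, which the dye sentence of the methods does not, and the labels were followed. There was no dye swap, and a dye effect of a probe is shared by all groups. The authors also deposited log2 values of 3017 probes, centred by probe, and Cyp4a1 is the 1 member probe among them. The paper reports the same number of differentially expressed genes from its adjusted ANOVA. Its pathway table for 3 months also names CYP4A11 among the genes that differed between the diets. Here Cyp4a1 was not called over the 4 groups (limma F test, adjusted p = 0.362), and the test that the methods name called 0 members. Of their CD 3 columns 4 equal the array of another CD 3 rat and 1 equals none analysed here (within 0.01), and the array of CD 3 rat 1 is in no column, so that their CD 3 group is not the same set of arrays.

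Log10 ratios were turned to log2, spots that the scanner software marked non-uniform were dropped, and spots of a probe were averaged, with no scaling between arrays. Testing was limited to probes with a share of 0.5 or more of their spots well above background in Cy5 throughout the arrays of some group, and 698 of the 19434 probes tested lacked a value on some array. The main probe of a gene is the one with the highest mean Cy5 signal. The 4 group means were fitted with limma 3.58.1 in R 4.3.3, with Benjamini-Hochberg adjustment over all probes tested. The fit was tested on simulated data. Intervals are at 95%. The number of rats limits the precision.

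The 9 genes and all lists were chosen with earlier results of these data known. All members were named. From each list at most 4 genes with the largest diet difference were named, and the 5 genes most like Cyp4a1 and Cyp4f1 by Pearson r, and further genes named after their values were seen are marked so. Alternatives were another background correction and normalisation, the Cy5 channel alone, centring, other detection filters, array weights, blocks for slide and rat number, other tests and leaving out arrays.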

Additional observations from a re-analysis of the deposited data

Results flagged for a closer look

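Of 40 groups of values examined, 10 probes in 4 groups each, 6 held a rat whose gap to its nearest neighbour was a large share of the group's range, and chance alone gives this in about 1 in 20 groups. For Cyp4a2 these were BD 3 rat 3, at 2.40 with the next rat at 0.34, and CD 14 rat 3, at -5.25 with the next at -0.73. CD 14 rat 3 also stood apart for Cyp4a3, at -3.14 with the next at -0.40. For Cyp4f1 it was BD 3 rat 3, at 0.25 with the next at -0.37. For the brighter Cyp4a8 probe it was BD 14 rat 5, at 0.057 with the next at -0.77, and for Cyp4b1 BD 14 rat 4, at -0.67 with the next at 0.09. For Cyp4a2 and Cyp4f1 in BD 3 rat 3 and Cyp4a8 in BD 14 rat 5, the quantile-normalised Cy3 reference signal was the lowest of its group. It was 14.49, 15.31 and 12.94, while the Cy5 signals, 16.80, 15.54 and 12.95, were not the highest of their groups. For Cyp4a2 and Cyp4a3 in CD 14 rat 3 and Cyp4b1 in BD 14 rat 4, the Cy5 signal was the lowest of its group. What sets these values apart was not tested. None of the 10 probes differed in its diet effect between 3 and 14 months by limma's interaction at an adjusted p of 0.05, as 0% of all probes did.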

How the results depend on the processing

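The count of Cyp4 probes called was 0 in the diet and time comparisons under each of the 12 alternatives that give a count, and in the F test and the interaction under those that fit them (a fit of only the 2 groups compared gives neither, and the methods' test gives no interaction). Under the strict detection filter Cyp4b1 was not tested. Without any 1 array it ranged from 0 to 0. Of the 21 member differences examined, none came under an adjusted p of 0.05. The one-way ANOVA and Tukey's HSD that the methods name passed Cyp4a1 and Cyp4f4 over the 4 groups and Cyp4f4 between BD 14 and BD 3 without adjustment, beside 2083 and 435 of the 19434 probes, and 0 members after it, beside 1 probe each. For the PPARalpha list, 1 gene was called at 3 months in the Cy5 channel alone (Cidec) and 1 at 14 months with array weights (Acot1). Without 1 array the list's count ranged from 0 to 0 at 3 months and from 0 to 1 at 14 months, where Acot1 was called without CD 14 rat 1 and without BD 14 rat 2.

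With the slide as a block, differences turned to -0.16 and -0.80 for Cyp4a2, -0.059 and -0.36 for Cyp4a3 (3 and 14 months), 0.22 for Cyp4a8 and 0.039 for Cyp4f1 at 14 months, and -1.22 for Cyp4b1, 0.038 for Cyp4f4 and 0.21 for Cyp4f5 at 3 months. In Cy5 alone Cyp4a8 turned to 0.45 and Cyp4b1 to -0.48 at 14 months, and with normexp and loess Cyp4b1 turned to -0.30 at 3 months. With 3 arrays of low or uneven signal left out, an alternative chosen after seeing the data, Cyp4a8 and Cyp4f1 turned to 0.17 and 0.092 at 3 months, and Cyp4a1 gave 1.12 at both times. The cause was not tested in any of these. The authors' deposited values gave 1.22 and 0.94 for Cyp4a1, the first over another set of CD 3 arrays that lacks rat 1 (without rat 1 the difference here was 1.14).

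Leaving out 1 array, the difference at 14 months ranged from -0.81 (without CD 14 rat 3) to 0.95 (without BD 14 rat 2) for Cyp4a2 and from -0.44 to 0.37 (the same arrays) for Cyp4a3, and that at 3 months from -0.38 to 0.13 for Cyp4a8, -0.31 to 0.67 for Cyp4b1 and -0.26 to 0.17 for Cyp4f1, where the highest values are those without CD 3 rat 1 and the lowest of Cyp4b1 is that without CD 3 rat 4. With their sign kept, single arrays moved the difference at 3 months from 0.30 (without BD 3 rat 3) to 1.19 (without CD 3 rat 1) for Cyp4a2, 0.10 to 0.61 (the same arrays) for Cyp4a3, -0.40 (without CD 3 rat 1) to -0.15 (without CD 3 rat 5) for Cyp4f4 and -0.79 (without BD 3 rat 2) to -0.24 (without BD 3 rat 1) for Cyp4f5. At 14 months they moved it from -0.45 (without BD 14 rat 5) to -0.14 (without CD 14 rat 2) for Cyp4a8, 0.16 (without CD 14 rat 4) to 0.49 (without BD 14 rat 4) for Cyp4b1, -0.44 (without CD 14 rat 4) to -0.054 (without CD 14 rat 2) for Cyp4f1, 0.27 (without CD 14 rat 2) to 0.60 (without BD 14 rat 4) for Cyp4f5 and -0.39 (without CD 14 rat 4) to -0.16 (without BD 14 rat 6) for Cyp4f6. Those of Cyp4a1 stayed between 0.68 and 1.14 at 3 months and 0.67 and 1.13 at 14 months. The rat numbers are shared between groups but pair nothing: correlations between same-numbered rats ran from -0.27 to 0.29, and 5 of 22 arrays were most like one of their own number. With the replicate block 0 members were called and Cyp4a1 gave 0.93 and 0.94 (adjusted p = 0.696 and 0.949).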
